A study of Mus musculus with 2 samples.

Results

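Tubulins and the proteins that bind microtubules were examined in TgS1 cells, a line of mouse Schwann cells (peripheral nerve glia) with a transgene for the V30M variant of human transthyretin (TTR). The set took the protein-coding rows named as alpha-, beta-, gamma-, delta- or epsilon-tubulins, stathmins, tubulin cofactors, MAP7, MAPRE or TACC family genes, and 13 further microtubule-associated genes chosen by name. It held 51 genes of the 21821 protein-coding rows in the table. There were 2 libraries, 1 from cells kept long-term in SCM, a medium whose name is not spelled out in the labels, and 1 from cells kept long-term in DMEM, a basal medium (S-DEMEM in the series text). Both came from the same line with the same genotype. The series title speaks of a repair state of the Schwann cell, and no label ties that state to a medium.

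Microtubules are hollow polymers of alpha- and beta-tubulin dimers. Each tubulin is encoded by several genes, called isotypes, whose protein products co-polymerise and differ mostly at the carboxyl terminus. New filaments are nucleated on gamma-tubulin, dimers are folded with the help of the cofactors TBCA to TBCE, stathmins sequester free dimers, and structural microtubule-associated proteins (MAPs) bundle and stabilise the polymer. In Schwann cells, microtubules carry transport along the long cell processes and into the myelin sheath.

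The SCM library held 36666676 assigned reads and the DMEM library 29085791, over 21508 and 21523 rows with at least 1 read. Because each medium had 1 library, differences could not be set against the spread between cultures, and no p-value was computed. Levels are in FPKM, fragments per kilobase of gene length scaled to the library's total, as the authors deposited them. Intervals of ratios of single genes are 95% exact (Clopper-Pearson) intervals from the reads behind the FPKM values, and those of sums and shares are normal approximations. They cover counting error only, and may be too narrow for that, since copies made by amplification were not told apart by molecular identifiers. Human TTR stood at 5.84 FPKM in SCM and 461 FPKM in DMEM, so differences with medium and with transgene level cannot be told apart here. All 8 markers of the Schwann cell list were measured in these cells, among them Sox10 at 113 FPKM in SCM and 126 FPKM in DMEM. Of the other cell types' markers, 0 of 6 fibroblast, 0 of 5 endothelial and 0 of 6 muscle genes reached 1 FPKM, and 1 of 6 macrophage (Cd68) and 1 of 5 melanocyte genes (Mitf) did.

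Alpha- and beta-tubulin transcripts were lower in SCM as a group, and in 2 beta isotypes, Tubb4a and Tubb6, at least 2-fold. Map1b, the most abundant member in DMEM, was also lower by more than 2-fold. Gas2l3, Map7d2 and Tacc1 were higher by at least 2-fold, while Mapre1, Mapre2, Clasp1, Map4, Map1a and Map7d1 lay close to equal levels. Calls were made at 2-fold on the scale of log2((FPKM in SCM + 1) / (FPKM in DMEM + 1)), called the log2 ratio from here on. Rows entered if either library, or both, reached 1 FPKM. Of the 51 members, 39 passed that filter. Of these, 3 were called higher in SCM, against 2.48% of 10081 protein-coding rows, and 3 were called lower, against 1.44%. The members' shares were 7.69% in each direction, which rests on 3 genes each. At 1.5-fold, 4 members were higher, against 6.44% of protein-coding rows, and 11 were lower, against 4.99%. The median log2 ratio was -0.25 over the 39 members and -0.03 over the protein-coding rows, and 30 members lay below 0, against 54.4% of those rows. Fewer cells of a type and less RNA per cell cannot be told apart in such bulk libraries.

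**Figure D1:**
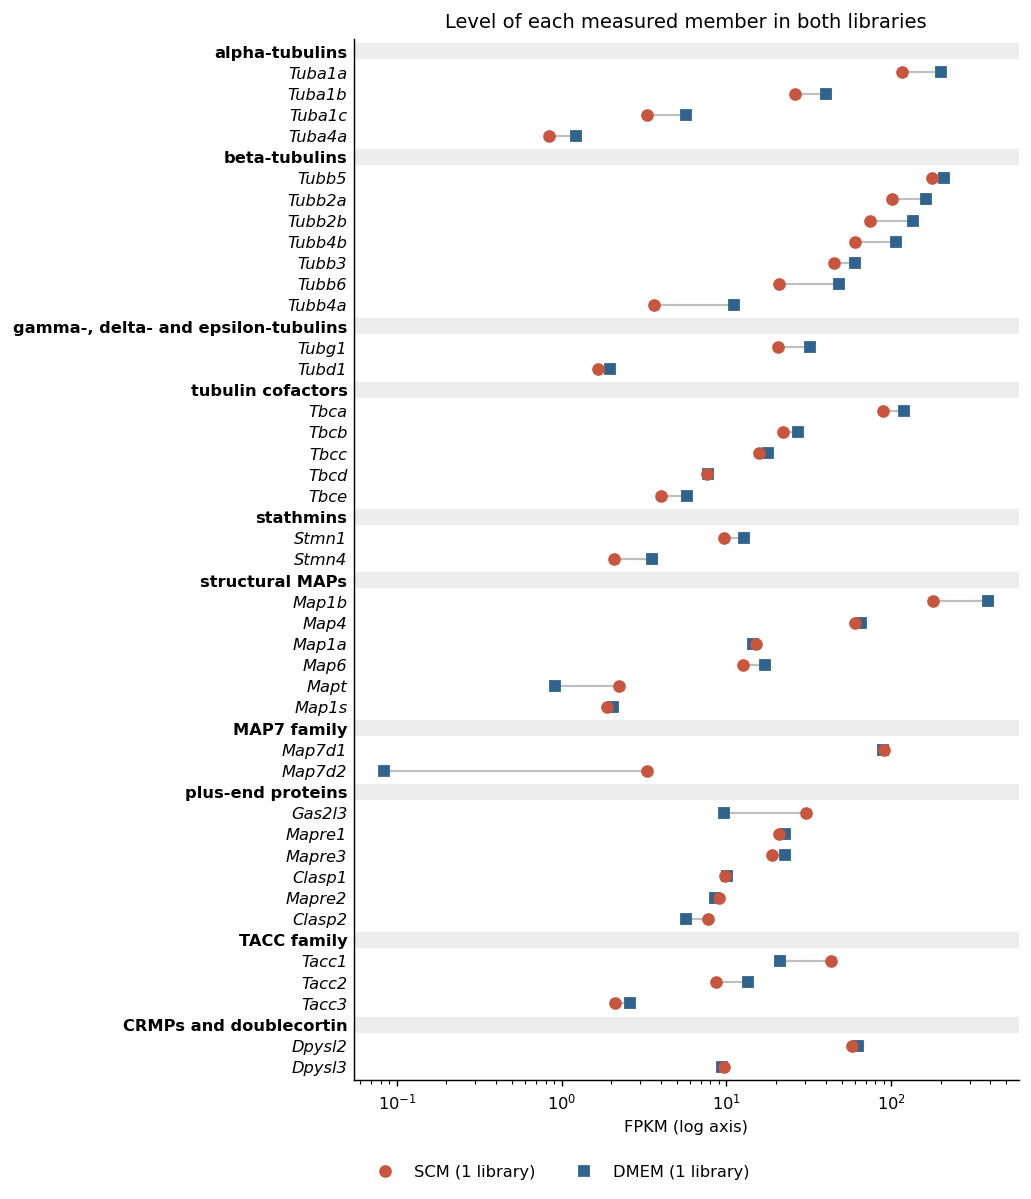
FPKM (log axis) of the 39 measured members, grouped by role, with circles for the SCM library and squares for the DMEM library. Every alpha- and beta-tubulin circle lies left of its square, whereas Gas2l3, Tacc1, Mapt and Map7d2 lie to the right.

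The alpha-tubulin genes were dominated by Tuba1a, the isotype prominent in developing neurons. Tuba1a had 116 FPKM in SCM and 202 FPKM in DMEM, from 7695 and 10581 reads, and was 1.73-fold lower (1.68 to 1.79). It lies at chr15:98949837-98953703 on the minus strand with 4 exons, in GENCODE M21 on GRCm38, the annotation used for all gene positions given. Positions span the whole gene, and exon numbers here and below are those of the coding transcript chosen for each gene. Tuba1b, a widely expressed isotype, had 25.9 FPKM in SCM and 40.1 FPKM in DMEM. Tuba1c had 3.32 FPKM in SCM and 5.67 FPKM in DMEM. All 4 measured alpha-tubulins were lower in SCM, with log2 ratios from -0.79 for Tuba1a to -0.27 for Tuba4a, and 0 passed 2-fold. Tuba4a had 0.840 FPKM in SCM and 1.23 FPKM in DMEM, and so passed the filter through DMEM alone. The testis isotypes Tuba3a and Tuba3b had 0 reads in both libraries, where a count of 0 (taken as up to 3 reads) allows up to 0.0542 FPKM in SCM and 0.0684 FPKM in DMEM for Tuba3a. Tuba8, below the filter, had the higher level in SCM, at 0.494 FPKM (41 reads) in SCM and 0.0912 FPKM (6 reads) in DMEM, with an interval of the ratio from 2.29 to 15.6.

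The beta-tubulins were spread over more isotypes. Tubb5, the general isotype of dividing cells, was highest, at 177 FPKM in SCM and 208 FPKM in DMEM, and its ratio was the closest to 1 of the beta-tubulins, at 0.852 (0.835 to 0.868). Tubb2a had 102 FPKM in SCM and 163 FPKM in DMEM, and Tubb2b, which is linked to neuronal migration, had 74.6 FPKM in SCM and 136 FPKM in DMEM. Tubb4b, another broadly expressed isotype, had 59.95 FPKM in SCM and 108 FPKM in DMEM. These 3 genes were lower by 1.604-fold to 1.818-fold and so fell short of the 2-fold call. Tubb3, often used as a neuronal marker, had 44.98 FPKM in SCM and 60.2 FPKM in DMEM, a ratio of 0.747 (0.711 to 0.785).

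Both beta-tubulins past 2-fold were among the less abundant isotypes. Tubb4a, the brain isotype that is enriched in oligodendrocytes, had 3.62 FPKM (296 reads) in SCM and 11.2 FPKM (723 reads) in DMEM, 3.08-fold lower (2.69 to 3.54). Its log2 ratio of -1.39 was the lowest of the 39 measured members, although with a pseudocount of 3 FPKM it was -1.10, level with Map1b. The gene lies at chr17:57080066-57087782 on the minus strand with 4 exons. Tubb6, an isotype found in many tissues at low levels and induced in regenerating muscle, had 20.98 FPKM (1875 reads) in SCM and 48.1 FPKM (3411 reads) in DMEM, 2.29-fold lower (2.17 to 2.43). Tubb1, the platelet isotype, had 0 reads in both.

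Over alpha- and beta-tubulins together, the 11 measured genes had a median log2 ratio of -0.68. All 11 were below 0, against 54.4% of protein-coding rows, with Tuba4a measured through DMEM alone. Tuba8, below the filter, lay above 0. At 1.5-fold, 8 of the 11 were lower in SCM, against 4.99% of protein-coding rows. That number was 7 with another scaling (median ratio size factors) and 6 with a pseudocount of 3 FPKM. The genes of each family resemble each other in sequence and are not independent observations. The summed alpha-tubulin level, which includes Tuba8, was 147 FPKM in SCM and 249 FPKM in DMEM, a ratio of 0.591 (0.575 to 0.606). The summed beta-tubulin level was 483 FPKM in SCM and 734 FPKM in DMEM, a ratio of 0.658 (0.649 to 0.667). Summed beta- over summed alpha-tubulin stood at 3.29 in SCM and 2.95 in DMEM.

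The make-up of the beta-tubulin pool differed more than that of the alpha pool. Tubb5 took 36.7% of beta-tubulin FPKM in SCM (36.3 to 37.1) and 28.4% in DMEM (28.0 to 28.7), a difference of 8.34 percentage points. Tubb3 took 9.32% in SCM and 8.21% in DMEM. The other 5 measured isotypes took smaller shares in SCM, with Tubb2b at 15.4% in SCM and 18.5% in DMEM, Tubb4b at 12.4% in SCM and 14.7% in DMEM, and Tubb6 at 4.35% in SCM and 6.56% in DMEM. Among alpha-tubulins, Tuba1a took 79.2% in SCM (78.4 to 80.0) and 81.1% in DMEM (80.4 to 81.7), and Tuba1b 17.6% in SCM and 16.1% in DMEM. These intervals cover counting error and not differences between cultures or reads split or dropped among near-identical isotypes.

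**Figure D2:**
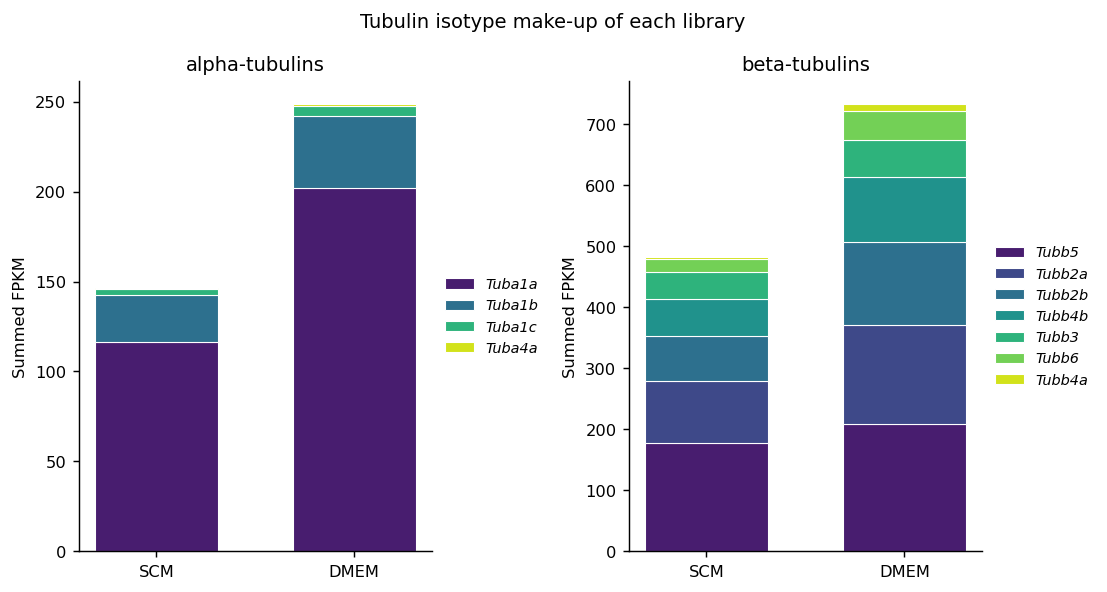
Summed FPKM of the measured alpha-tubulin (left) and beta-tubulin (right) isotypes in the SCM and DMEM libraries, 1 library each, stacked by gene. The full sums, which add Tuba8 (below the filter and not drawn), are 147 and 483 FPKM in SCM and 249 and 734 FPKM in DMEM. Tubb5 makes up more of the beta stack in SCM.

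The separate levels of close isotypes are uncertain, because short reads of near-identical copies can be split or dropped in counting. If such reads were dropped, the summed levels, the beta- over alpha-tubulin values and the isotype shares are affected too. The effect would be larger for genes with many shared stretches, and how such reads were handled is not known. The coding sequences of Tuba1a and Tuba1b are 98.3% identical, those of Tuba1b and Tuba1c 97.9%, and those of Tubb2a and Tubb2b 96.5%, in the GENCODE M21 transcripts. Of all stretches of 50 bases in the Tuba1b transcript, 73.8% also occur in the transcript of another gene or pseudogene. That share was 72.9% for Tuba1a, 60.99% for Tuba1c, 50.9% for Tubb4b, 49.6% for Tubb2a and 39.3% for Tubb2b. It was 0% for Tubb3 and Tubb6, 0.115% for Tubb5 and 0.184% for Tubb4a, so the calls on Tubb4a and Tubb6 rest on genes with few or no shared stretches. Rows of 23 tubulin pseudogenes summed to 4.71 FPKM in SCM and 7.31 FPKM in DMEM, and 2 of them reached 1 FPKM.

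The start of the coding sequence is shown for the tubulins because it is a known control element. In mammalian cells, an excess of free tubulin dimers leads to decay of alpha- and beta-tubulin mRNAs on the ribosome, through recognition of the first 4 residues of the new chain by TTC5. That decay was not measured here. The first 30 coding bases are given, with the first 4 codons (12 bases) in capitals, 5′ to 3′ from GENCODE M21 transcripts of GRCm38.
Tuba1a: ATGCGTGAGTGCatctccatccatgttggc
Tuba1b: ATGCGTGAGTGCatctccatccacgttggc
Tuba4a: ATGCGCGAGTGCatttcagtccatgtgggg
Tuba8: ATGAGGGAATGCatatcggtccatgtgggt
Tubb2a: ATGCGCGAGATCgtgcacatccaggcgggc
Tubb2b: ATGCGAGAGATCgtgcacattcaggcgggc
Tubb3: ATGAGGGAGATCgtgcacatccaggccggc
Tubb4a: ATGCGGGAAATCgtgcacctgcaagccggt
Tubb4b: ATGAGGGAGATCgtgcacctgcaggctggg
Tubb5: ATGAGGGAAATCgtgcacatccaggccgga
Tubg1: ATGCCGAGAGAAatcatcaccctacagttg
The 7 alpha-tubulin genes used 4 different 12-base starts that encode 1 run of 4 residues, and the 7 beta-tubulin genes compared, all but Tubb6, used 6 that also encode 1 run. The 4 gamma-, delta- and epsilon-tubulin genes used 4 starts and 3 runs of residues.

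Promoters are shown for Tubb2a and Tubb4b, 2 of the beta-tubulins lower in SCM whose RefSeq window lies wholly before the gene in GENCODE M21 as well. Each line gives the 250 bases before the RefSeq start (GRCm38.p6), 5′ to 3′ on the strand of the gene. Capitals mark the CCAAT box (CCAAT), the GC box (GGGCGG), the TATA box (TATAAA) and the E-box (CACGTG) on either strand. The windows lie at chr13:34078009-34078258 (minus strand) for Tubb2a and chr2:25224703-25224952 (minus strand) for Tubb4b.
Tubb2a: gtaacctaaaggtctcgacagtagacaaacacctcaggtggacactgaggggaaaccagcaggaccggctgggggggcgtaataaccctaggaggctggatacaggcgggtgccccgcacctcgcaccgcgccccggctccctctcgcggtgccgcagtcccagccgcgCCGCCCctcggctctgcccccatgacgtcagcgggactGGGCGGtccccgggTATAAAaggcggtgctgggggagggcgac
Tubb4b: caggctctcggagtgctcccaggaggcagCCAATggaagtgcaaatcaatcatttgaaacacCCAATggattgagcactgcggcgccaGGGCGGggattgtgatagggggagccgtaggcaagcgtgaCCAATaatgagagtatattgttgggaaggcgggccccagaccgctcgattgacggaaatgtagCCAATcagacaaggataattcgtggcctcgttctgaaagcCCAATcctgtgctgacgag
Of the 11 measured alpha- and beta-tubulins, 9 had a window in the RefSeq table, and 6 of these 9 reach into the GENCODE gene because the annotations place the start differently. CCAAT was present in 5 of these 9 and in 33.8% of all 32851 windows, and GGGCGG in 6 of 9 and in 32.7%. TATAAA was present in 1 of 9 and in 12.4% of all windows, and CACGTG in 1 of 9 and in 6.02%. The Tubb4b window held 5 copies of CCAAT, at 19 to 221 bases before the start. A match in these letters is a description and not a binding site.

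The tubulins outside the polymer lattice were lower or nearly equal. Tubg1, the main gamma-tubulin of the nucleating ring complex, had 20.7 FPKM (1716 reads) in SCM and 32.1 FPKM (2118 reads) in DMEM, a ratio of 0.643 (0.603 to 0.685). Tubg2, its close relative, was under the filter at 0.855 FPKM in SCM and 0.921 FPKM in DMEM, and 14.1% of the 50-base stretches of Tubg1 are shared with other genes, mainly Tubg2. Tubd1 and Tube1 encode centriolar tubulins. Tubd1 had 1.66 FPKM in SCM and 1.98 FPKM in DMEM, and the interval of its ratio, 0.649 to 1.09, held 1. Tube1 was under the filter, at 0.153 FPKM in SCM and 0.224 FPKM in DMEM.

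All 5 tubulin cofactors lay below 0 in log2 ratio and 0 passed 2-fold, with a median of -0.29. Tbca, which holds free beta-tubulin, was the most abundant, at 88.9 FPKM in SCM and 119 FPKM in DMEM, a ratio of 0.747 (0.708 to 0.788). Of the stretches of 50 bases in its transcript, 25.5% occur in other genes. Tbce, which binds alpha-tubulin, had the largest difference, at 3.99 FPKM in SCM and 5.74 FPKM in DMEM, with a ratio of 0.695 (0.625 to 0.772). Tbcb had 22.1 FPKM in SCM and 27.1 FPKM in DMEM. Tbcc, the cofactor that stimulates hydrolysis of GTP on beta-tubulin, had 15.8 FPKM in SCM and 17.9 FPKM in DMEM. Tbcd had 7.59 FPKM in SCM and 7.78 FPKM in DMEM, with an interval of the ratio, 0.917 to 1.04, that held 1. Exons of Tbcb, Tbcd and Tbce overlap another measured row on the opposite strand, as do those of Tacc3, Tuba4a and Map1a, and the sources do not say whether reads were counted by strand.

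Of the 4 stathmins, which bind tubulin dimers and promote disassembly, 2 were measured and both were lower in SCM without passing 2-fold. Stmn1, the widely expressed stathmin, had 9.68 FPKM in SCM and 12.9 FPKM in DMEM, a ratio of 0.752 (0.677 to 0.837). Of its 50-base stretches, 36.5% also occur in other genes. Stmn4 had 2.09 FPKM (147 reads) in SCM and 3.52 FPKM (196 reads) in DMEM, a ratio of 0.595 (0.477 to 0.741). The neuronal stathmin Stmn2 had 0 reads in SCM and 2 reads in DMEM, and Stmn3 had 8 reads in SCM and 1 in DMEM.

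Among the structural MAPs, Map1b, a microtubule stabiliser of growing axons and of immature glia, stood apart. It had 180.0 FPKM in SCM and 390 FPKM in DMEM, from 104576 and 179574 reads, and was 2.16-fold lower (2.15 to 2.18). The gene spans chr13:99421446-99516540 on the minus strand with 7 exons. By FPKM it ranked 127 of 55323 rows in SCM and 53 in DMEM. Its adult relative Map1a had 15.2 FPKM in SCM and 14.5 FPKM in DMEM, with a ratio of 1.05 (1.01 to 1.09). Map1s, the third family member, had 1.88 FPKM in SCM and 2.06 FPKM in DMEM. Only Map1b of these 3 relatives was past 2-fold.

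Map4, the main MAP of non-neuronal cells, was nearly equal, at 60.3 FPKM in SCM and 65.5 FPKM in DMEM, a ratio of 0.921 (0.906 to 0.935). Map6, a cold-stabilising MAP, had 12.6 FPKM in SCM and 17.2 FPKM in DMEM, a ratio of 0.737 (0.706 to 0.768). Mapt, which encodes tau, went the other way, at 2.25 FPKM (620 reads) in SCM and 0.918 FPKM (201 reads) in DMEM. Its plain ratio was 2.45 (2.08 to 2.88), but its log2 ratio of 0.76 fell short of the call, and it passed the filter through SCM alone. With a pseudocount of 0.1 FPKM in place of 1, Mapt passed 2-fold, at 1.205. Map2, the dendritic MAP of neurons, had 0 reads in both libraries, which allows up to 0.00497 FPKM in SCM and 0.00627 FPKM in DMEM.

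The MAP7 family recruits kinesin-1 to microtubules, and its 4 genes stood at very different levels. Map7d1 was abundant and nearly equal, at 90.0 FPKM (12046 reads) in SCM and 89.0 FPKM (9456 reads) in DMEM, with a ratio of 1.01 (0.984 to 1.04). Map7d2, described in the brain, had 3.29 FPKM (497 reads) in SCM and 0.0834 FPKM (10 reads) in DMEM, a ratio of 39.4 (21.3 to 82.7). Its log2 ratio was 1.99, but 4.21 with a pseudocount of 0.1 FPKM and 1.03 with 3 FPKM, so its size depends on that choice. The level in SCM was far below that of Map7d1. It passed the filter through SCM alone, and spans chrX:159414572-159498757 on the plus strand with 17 exons. Map7 and Map7d3 were below the filter in both, at 0.0241 and 0.142 FPKM in SCM and 0.0390 and 0.131 FPKM in DMEM.

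Of the genes that act at plus ends and link filaments, only Gas2l3 passed 2-fold. Gas2l3, a linker of microtubules and actin at the spindle midzone and midbody, had 30.3 FPKM (7808 reads) in SCM and 9.66 FPKM (1976 reads) in DMEM, 3.13-fold higher (2.98 to 3.29). The Gas2l3 gene lies at chr10:89408823-89443967 on the minus strand, with 11 exons in the chosen transcript. The end-binding genes track growing tips. Mapre1 had 20.8 FPKM in SCM and 22.8 FPKM in DMEM, Mapre2 9.04 FPKM in SCM and 8.52 FPKM in DMEM, and Mapre3 19.0 FPKM in SCM and 22.8 FPKM in DMEM. Their log2 ratios ran from -0.25 to 0.08. The rescue factor Clasp1 had 9.77 FPKM in SCM and 10.1 FPKM in DMEM, with an interval of its ratio from 0.937 to 1.001, and Clasp2 had 7.75 FPKM in SCM and 5.66 FPKM in DMEM, with a ratio of 1.37 (1.303 to 1.438).

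The TACC genes encode coiled-coil proteins that partner with the microtubule polymerase CKAP5, and they were not alike here. Tacc1 had 43.3 FPKM (18929 reads) in SCM and 21.05 FPKM (7297 reads) in DMEM, 2.06-fold higher (2.003 to 2.114). The Tacc1 gene lies at chr8:25154552-25256588 on the minus strand, with 13 exons in the chosen transcript. Its log2 ratio of 1.01 lay just past the call, and it was 0.95 both with a pseudocount of 3 FPKM and with TPM scaling. Tacc2 was lower, at 8.66 FPKM in SCM and 13.6 FPKM in DMEM, with a ratio of 0.636 (0.613 to 0.660). Tacc3, the mitotic family member, had 2.10 FPKM in SCM and 2.60 FPKM in DMEM, with a ratio of 0.805 (0.678 to 0.956).

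The collapsin response mediator proteins bind tubulin dimers and promote assembly. Dpysl2 had 58.2 FPKM (9642 reads) in SCM and 63.3 FPKM (8320 reads) in DMEM, with a ratio of 0.919 (0.893 to 0.947). Dpysl3 had 9.61 FPKM in SCM and 9.46 FPKM in DMEM, and its interval, 0.955 to 1.08, held 1. Dcx, the doublecortin gene of migrating neurons, had 0 reads in both.

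Some members are used as neuronal markers, so neuronal genes were read beside them. Of 12 neuronal markers, 11 were under 1 FPKM in both libraries, and Rbfox3, Syt1, Elavl4 and Slc17a6 had 0 reads in both. The list summed to 10.5 FPKM in SCM and 18.4 FPKM in DMEM, of which Gap43, which Schwann cells also express, gave 9.63 FPKM in SCM and 17.7 FPKM in DMEM. Tubb3, Map1b, Map6 and Mapt were thus measured in libraries where most neuronal markers, with Map2, Dcx and Stmn2, were at or near 0.

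**Figure D3:**
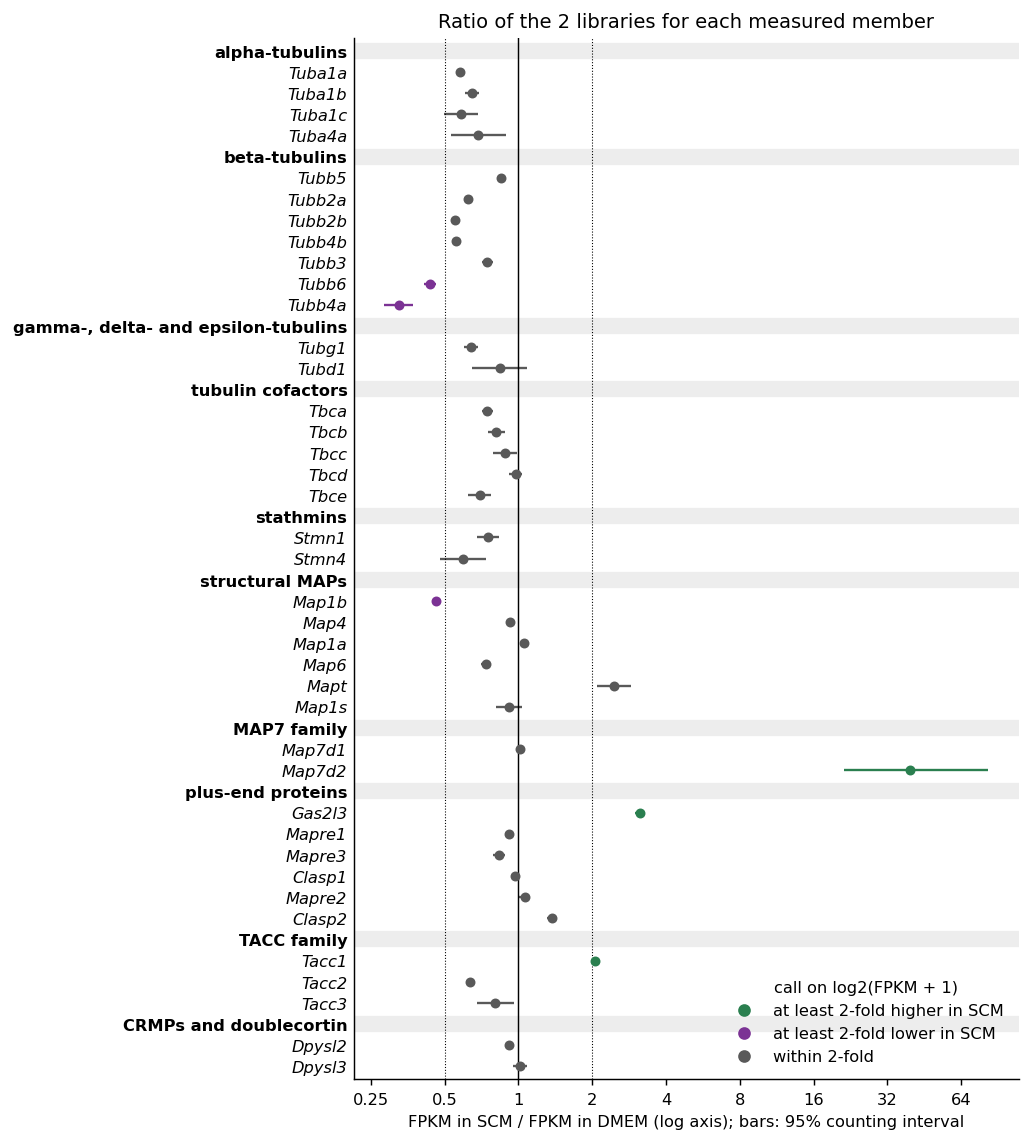
Plain ratio of FPKM in SCM over FPKM in DMEM (log axis) for the 39 measured members, with 95% counting intervals and dotted lines at 0.5 and 2. Green points were called at least 2-fold higher in SCM (Gas2l3, Map7d2, Tacc1), purple points at least 2-fold lower (Map1b, Tubb4a, Tubb6) and grey points within 2-fold on log2(FPKM + 1), which includes Mapt at 2.45.

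The 13 measured tubulins and the 26 other measured members were spread differently. All 13 tubulins lay below 0, against 54.4% of protein-coding rows. Their median log2 ratio was -0.63, with a range from -1.39 to -0.16. The other 26 members had 17 below 0, a median of -0.12 and a range from -1.11 to 1.99. The 3 members called higher were all outside the tubulins, and 2 of the 3 called lower were beta-tubulins. No test of the difference between these sets was made, with 1 library per medium.

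**Figure D4:**
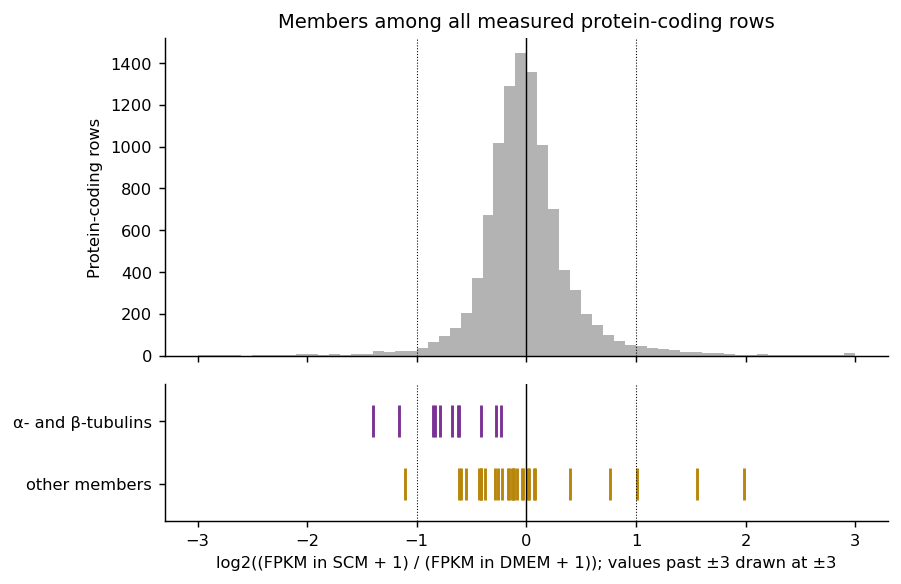
Histogram of log2((FPKM in SCM + 1) / (FPKM in DMEM + 1)) over 10081 protein-coding rows (top), with ticks for the 11 alpha- and beta-tubulins and the 28 other members below. The tubulin ticks run from -1.39 to -0.23, left of the histogram's centre near -0.03, and the other members lie on both sides.

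Genes that nucleate, fold, modify or sever microtubules were read from 8 further lists. Of 10081 protein-coding rows, 2.48% were called higher and 1.44% lower, so few or no calls would fall in lists this short at those shares. None of the 11 genes of the gamma-tubulin ring complex list passed 2-fold, 8 lay below 0 and the median log2 ratio was -0.26. Tubgcp2, a core subunit of the ring, had 6.08 FPKM in SCM and 12.03 FPKM in DMEM, a log2 ratio of -0.88. Mzt2 had the highest log2 ratio of that list, 0.42, at 1.92 FPKM (92 reads) in SCM and 1.18 FPKM (45 reads) in DMEM. The tubulin folding chaperones had 0 of 14 past 2-fold and a median of -0.19. Pfdn2, a prefoldin subunit, had 11.8 FPKM in SCM and 16.4 FPKM in DMEM, and Cct6a, a subunit of the CCT ring, 65.5 FPKM in SCM and 83.1 FPKM in DMEM. The median of these lists lay below the -0.03 of protein-coding rows, by less than that of the alpha- and beta-tubulins.

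Enzymes that modify or sever the filament also held no gene past 2-fold on the log2(FPKM + 1) scale. Of 21 tubulin modifying enzymes, 15 were measured, 0 passed 2-fold, 13 lay below 0 and the median was -0.28. Ttll7, a beta-tubulin polyglutamylase, had 0.930 FPKM (282 reads) in SCM and 2.05 FPKM (493 reads) in DMEM, a plain ratio of 0.454 (0.391 to 0.526). Vash2, a tubulin carboxypeptidase, had 0.860 FPKM in SCM and 1.49 FPKM in DMEM. Both passed the filter through DMEM alone, and the median was -0.17 over the other 13 genes. The severing enzymes had 0 of 6 measured genes past 2-fold and a median of -0.24. Katnal1, a katanin subunit, had 13.5 FPKM in SCM and 20.7 FPKM in DMEM. Katna1, the catalytic katanin subunit, had 5.98 FPKM in SCM and 9.23 FPKM in DMEM.

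The binding proteins outside the set held 1 gene past 2-fold. Tppp3, which promotes tubulin polymerisation, had 2.701 FPKM (183 reads) in SCM and 10.3 FPKM (556 reads) in DMEM, a log2 ratio of -1.62, in a list of lattice-binding proteins with 16 measured genes and a median of -0.10. Of 14 measured plus-end and minus-end binding proteins, 0 passed 2-fold and the median was 0.03. The highest log2 ratio was 0.99 for Nav1, a navigator protein, with 6.89 FPKM in SCM and 2.97 FPKM in DMEM. Its plain ratio was 2.32 (2.19 to 2.46). Nav3 had 6.17 FPKM in SCM and 4.41 FPKM in DMEM. Kinases of MAPs had 0 of 10 past 2-fold and a median of -0.03. Among them Brsk1 had 2.24 FPKM in SCM and 4.62 FPKM in DMEM, a plain ratio of 0.485 that the added pseudocount brings within 2-fold. Cdk5 had 15.6 FPKM in SCM and 12.8 FPKM in DMEM.

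Spindle genes were read beside Gas2l3 and Tacc3, which act in mitosis. Of 16 genes, 10 were measured, 1 was called higher (Mki67, a proliferation marker, at 4.497 FPKM in SCM and 1.671 FPKM in DMEM) and 0 were called lower. The log2 ratio was above 0 for 7 of the 10, of which 4 were at least 1.5-fold higher, and below 0 for 3, Tpx2, Prc1 and Numa1, the lowest of them at -0.30. Kif11, Hmmr and Ccnb2 passed the filter through SCM alone, where they were higher. The median log2 ratio was 0.53 with them, 0.12 over the 7 genes with at least 1 FPKM in both libraries, and -0.16 when a minimum of 5 FPKM in either library was set, so its size and sign depend on the filter. The part of cell division in the level of Gas2l3 was not tested.

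**Figure D5:**
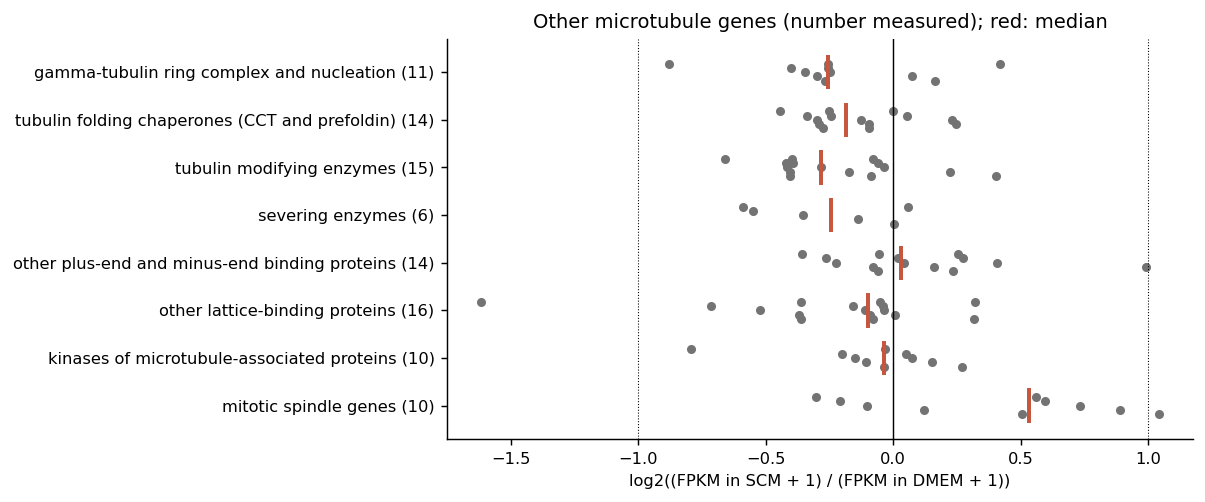
log2((FPKM in SCM + 1) / (FPKM in DMEM + 1)) of the measured genes of 8 lists of other microtubule genes, each point a gene and each red bar a median, with dotted lines at -1 and 1. Tppp3 at -1.62 and Mki67 at 1.04 are the only points past the dotted lines.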

How the data were processed

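RNA-seq libraries were made with a stranded total RNA kit (SMARTer), converted for DNBSEQ and deposited as 1 gene table, per the labels' protocols. The authors deposited FPKM values with gene lengths. Per the submitters' processing notes, the tools were STAR 2.7.9a, featureCounts 2.0.1, Trim Galore, cutadapt 3.1 and Trimmomatic 0.39, and the builds GRCm38.p6 and mm10, with no roles stated. The read length, strand setting and handling of multi-mapping reads are not given in the sources used. Columns were matched to samples by the name of the medium.

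FPKM times length in kilobases was a whole multiple of 1 step per library, so whole reads were recovered (100% of rows within 0.01 of a whole read). No count model was fitted, because there was 1 library per medium. Log2 ratios used a pseudocount of 1 FPKM, which understates the ratio of low genes. Ratio intervals were exact conditional binomial intervals, and intervals of sums and shares used a normal approximation to Poisson error. The calculation was run on simulated reads with Poisson error alone, and known changes were not placed in genes of low level. That run does not cover spread between cultures or copies made by amplification. All 51 members matched GENCODE M21 by gene ID. The table gave 0 of them the start and end of that annotation and 51 a span of equal length elsewhere, so no coordinate of the table is printed. Promoters came from RefSeq windows, and the 50 bases after the start site were left out.

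Every member was eligible to be named. Full statistics were given for members past 2-fold and for the highest level and largest difference in each role. From each other list, genes past 2-fold, or else the 2 with the largest log2 ratio, were named. Tpx2, Prc1, Numa1, Kif11, Hmmr, Ccnb2 and the markers named singly were added after their values were seen. The members and lists were chosen with earlier results of these data known. Python 3.11.15, pandas 2.3.3, SciPy 1.17.1 and Biopython 1.88 were used.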

Additional observations from a re-analysis of the deposited data

How the results depend on the processing

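The counts of members past 2-fold stayed within 1.5 times under pseudocounts of 0.1 and 3 FPKM, other filters, 3 other scalings and a required counting interval. The exception was the 1.5-fold threshold, which gave 11 members lower in SCM. The 3 scalings shifted log2 ratios by -0.06 to 0.03. All measured alpha- and beta-tubulins (10 or 11 genes) stayed below 0 under each pseudocount, scaling and the stricter filter. With no filter, 11 of 15 lay below 0, 3 had 0 reads in both libraries and Tuba8 lay above 0, at 0.45. The median of the members was -0.12 with no filter, where genes with 0 reads enter. The summed alpha-tubulin ratio was 0.565 with TPM scaling and 0.649 without Tuba1a. The summed beta-tubulin ratio was 0.674 with median ratio size factors, 0.630 with TPM scaling and 0.582 without Tubb5. List medians moved to -0.086 for modifying enzymes with no filter and to -0.030 for plus-end and minus-end proteins with TPM scaling. The spindle median was 1.02 and 0.25 with pseudocounts of 0.1 and 3 FPKM, -0.16 at a minimum of 5 FPKM and 0.12 at 1 FPKM in both libraries, where fewer genes were tested. For the other moves the cause was not tested. Of 266 values of single members under alternatives, 28 moved beyond their counting interval and 0 changed the sign of a call. Alternatives that leave out Tuba1a or Tubb5, use plain ratios, require 1 FPKM in both libraries or recompute list medians were chosen after seeing the data. No paired analysis was possible because each medium had 1 library. Depth limits genes with few reads, such as Map7d2 in DMEM (10 reads).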
